A study of Mus musculus with 6 samples.

Results

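The regions described here were called for H3K4me3 in wild-type cells with no overlapping region called in knockout cells, which does not show that the mark was absent there. They were taken from the list of the library labelled wild type, on chromosomes 1 to 19 and X, with a width of at least 1000 bp and no overlap of 1 bp or more with any region of the list of the library labelled knockout. There were 1325 such wild-type-only regions among 26290 wild-type regions of that width (5.04%) and among 48525 wild-type regions in all. Together they covered 1.72 Mb. For comparison, 3777 of 25751 knockout regions of at least 1000 bp overlapped no wild-type region (14.7%, called knockout-only), and 24965 wild-type regions of that width overlapped a knockout region (called shared).

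The cells were CD8+ lymphocytes that had infiltrated e0771 tumours, which grow from a mouse mammary carcinoma line, in C57BL/6 mice. The knockout cells carried a Cre-mediated deletion of Atg5, whose product is needed to build autophagosomes, and the comparison cells were wild type. The labels give neither the cell type in which Cre acted, nor the age of the mice, nor whether animals were pooled. Chromatin was digested with micrococcal nuclease without crosslinking, precipitated with an H3K4me3 antibody and sequenced, with 1 library for each genotype, so no difference between genotypes has a replicate check and no test was made.

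H3K4me3 is a histone mark laid down by the SET1 and MLL methyltransferase complexes. Its broadest and strongest regions lie over the starts of transcribed genes, most of which in mammals are rich in CpG dinucleotides. Weaker and narrower H3K4me3 is also found at active enhancers, which lie inside introns or between genes and differ far more between cell types than gene starts do.

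The labelled cell type was checked against the genes that define it. All 20 T cell identity genes had a knockout region over the gene body or within 1 kb, and 14 of 20 had a wild-type region there, against 70.4% and 70.7% of all 21627 protein-coding genes. The summed covered length of these 20 genes was 289 kb in knockout and 51.5 kb in wild-type cells. It was longer in the knockout for all 20, against 35.3% of all coding genes. Cd8a and Cd3e, which encode chains of the CD8 co-receptor and of the CD3 complex, had 6376 and 5114 bp in knockout and 0 bp in wild-type cells. Cd5, Zap70, Lat and Themis were also at 0 bp in wild-type cells. The list of the library labelled wild type therefore lacked regions at defining genes of the cell type on its label. With 1 library per genotype, a difference in cell makeup and a difference between genotypes cannot be told apart in anything that follows. Atg5 itself had 3957 bp in knockout and 2538 bp in wild-type cells. Since the labels leave the deleted stretch of the gene unnamed, these lengths check neither label.

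Wild-type-only regions were rarely found at gene starts, and the few starts they did cover held fewer CpG than starts under shared regions. Of 1271 wild-type-only regions on the chromosomes for which RefSeq starts were listed, 36 lay over a transcript start (2.83%, exact 95% interval 1.99 to 3.90%), against 7.17% of knockout-only and 38.2% of shared regions. The interval, like all others given here, covers counting error only. Of 11580 coding genes with a region of either list within 2.5 kb of the start, 10704 had one in both lists. Asking for no knockout region thus sets aside most covered starts in advance, so the contrast with shared regions describes the classes and tests nothing. These 36 regions held 38 listed starts. In the 300 bases around each of them, from 250 before to 50 after the start, the median number of CpG dinucleotides was 5, with a range of 0 to 10. Starts under knockout-only regions had a median of 8, those under shared regions 21 and all 32619 listed starts 7. Only 1 of the 38 starts held 10 or more CpG (2.63%), against 41.2% under knockout-only regions, 82.2% under shared regions and 43.8% of all listed starts. Among protein-coding starts alone the medians were 5 for wild-type-only, 10 for knockout-only and 21 for shared regions, and 13 for all listed coding starts. The 23 long non-coding RNA starts under wild-type-only regions had a median of 5, against 6 under knockout-only regions, 14 under shared regions and 4 for all listed ones. By its median that class was therefore not below its own background. By the share with 10 or more CpG it was, with 1 of 23 (4.35%) against 19.1% of all listed long non-coding RNA starts.

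Sequences are shown for 3 coding genes whose start lay under a wild-type-only region, to make this composition visible, and for Met, whose start lay under a shared region while its body held wild-type-only ones further in. They were taken from RefSeq (GRCm38.p6) and are written 5′ to 3′ on the strand of the gene, with CpG dinucleotides in capitals. Mrc1 encodes the mannose receptor CD206 of macrophages (chr2:14229164-14229463, plus strand, 3 CpG). Ccl8 encodes a monocyte-attracting chemokine (chr11:82114935-82115234, plus strand, 2 CpG). Ankrd1 encodes an ankyrin repeat protein best known from heart muscle and as a target of YAP (chr19:36119795-36120094, minus strand, 7 CpG). Met encodes the hepatocyte growth factor receptor (chr6:17463707-17464006, plus strand, 34 CpG).
Mrc1: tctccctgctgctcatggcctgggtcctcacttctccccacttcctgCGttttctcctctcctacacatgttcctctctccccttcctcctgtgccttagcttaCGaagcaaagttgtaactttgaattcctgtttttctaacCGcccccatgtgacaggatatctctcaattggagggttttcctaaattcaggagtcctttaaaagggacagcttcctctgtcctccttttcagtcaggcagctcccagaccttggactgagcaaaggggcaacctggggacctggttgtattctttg
Ccl8: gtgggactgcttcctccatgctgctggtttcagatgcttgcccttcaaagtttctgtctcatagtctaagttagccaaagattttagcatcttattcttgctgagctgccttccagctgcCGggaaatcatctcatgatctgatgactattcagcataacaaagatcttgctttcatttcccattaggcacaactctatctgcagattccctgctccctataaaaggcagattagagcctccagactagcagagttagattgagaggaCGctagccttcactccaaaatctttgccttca
Ankrd1: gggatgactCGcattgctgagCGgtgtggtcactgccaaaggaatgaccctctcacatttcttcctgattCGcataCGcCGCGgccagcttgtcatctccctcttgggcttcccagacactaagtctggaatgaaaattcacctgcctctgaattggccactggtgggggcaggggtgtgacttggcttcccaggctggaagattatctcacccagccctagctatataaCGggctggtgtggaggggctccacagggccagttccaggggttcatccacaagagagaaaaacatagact
Met: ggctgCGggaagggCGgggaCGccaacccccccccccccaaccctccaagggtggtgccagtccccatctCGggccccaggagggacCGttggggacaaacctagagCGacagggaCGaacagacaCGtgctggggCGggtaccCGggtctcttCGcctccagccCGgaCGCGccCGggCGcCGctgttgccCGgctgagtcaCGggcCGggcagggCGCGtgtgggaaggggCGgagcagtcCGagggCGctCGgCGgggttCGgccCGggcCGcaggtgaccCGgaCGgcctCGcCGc

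**Figure D1:**
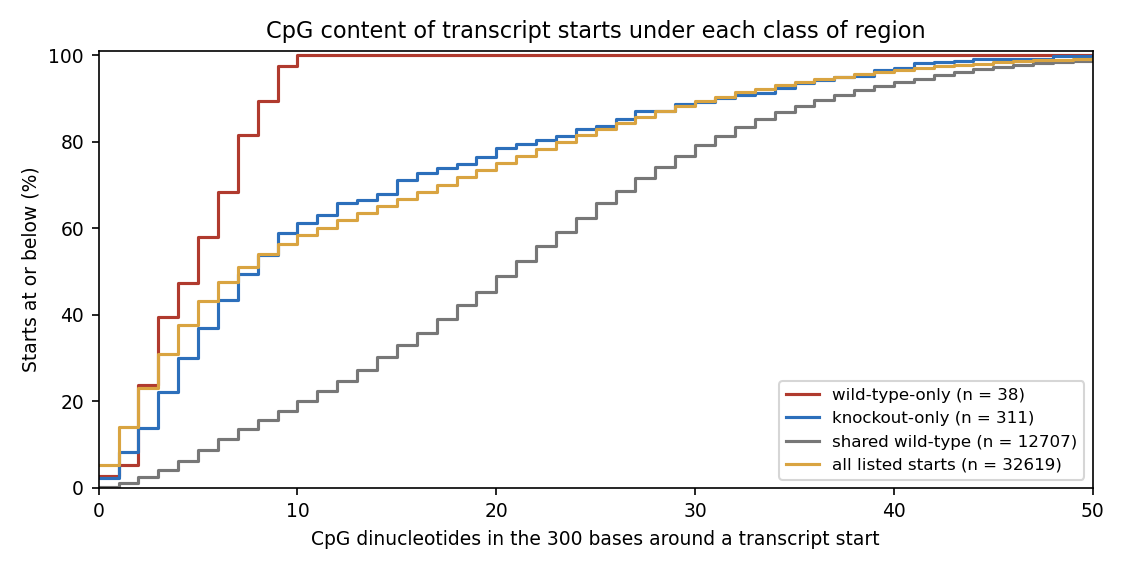
Cumulative share of transcript starts (y axis, percent) by number of CpG dinucleotides in the surrounding 300 bases (x axis), for starts under wild-type-only, knockout-only and shared wild-type regions and for all listed starts. The curve for the 38 starts under wild-type-only regions is complete at 10 CpG, whereas the median under shared regions is 21.

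The coding starts under wild-type-only regions belonged to Gpr35, Ascl5, Mrc1, Nr6a1, Gm829, Ece1, Tcf23, Galnt9, Kcng4, Ccl8, Akr1c14, 2610528A11Rik, Rxfp3, Apol11b and Ankrd1. Within 2.5 kb of the Mrc1 start 0 bp were covered in knockout and 1293 bp in wild-type cells. The Ccl8 start had 0 bp in knockout and 1287 bp in wild-type cells, and the Ankrd1 start had 0 bp in knockout and 1043 bp in wild-type cells. At each of these starts the wild-type length is wholly that of the wild-type-only region, which no knockout region overlaps by rule. Long non-coding RNA starts lay under 22 regions, 1 of which also covered a coding start. One of these, Egfros, starts inside Egfr and is transcribed in the opposite direction.

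Of 8 short motifs searched on both strands of the 300-base windows, the AP-1 letters TGANTCA were in 9 of the 38 under wild-type-only regions (23.7%). They were in 8.04% of windows under knockout-only regions, 5.38% under shared regions and 7.85% of all listed windows. AP-1 factors of the Fos and Jun families bind these letters in many activated cell types. The 9 windows belonged to 8 genes, since Egfros has 2 listed starts with windows that share their letters. The SP and KLF letters GGGCGG, which cannot overlap TGANTCA, were in 4 of 38 windows (10.5%), against 37.0% under knockout-only regions, 63.7% under shared regions and 35.9% of all. GGGCGG itself holds a CpG, so its share is not separate from the CpG counts above. The E-box CAGCTG was in 23.7% of windows under wild-type-only regions and 16.4% of all. In the same order, TATAAA was in 15.8% and 13.7%, GAGGAAG in 13.2% and 13.4%, TGTGGTT in 10.5% and 5.29%, AGATAAG in 5.26% and 3.04%, and TGACGTC in 2.63% and 3.23%. CAGCTG and TGANTCA can share bases at their ends, and a match is not evidence of binding. The Egfros window (chr11:16830629-16830928, minus strand) is shown because it holds the AP-1 letters 2 times, here in capitals.
Egfros: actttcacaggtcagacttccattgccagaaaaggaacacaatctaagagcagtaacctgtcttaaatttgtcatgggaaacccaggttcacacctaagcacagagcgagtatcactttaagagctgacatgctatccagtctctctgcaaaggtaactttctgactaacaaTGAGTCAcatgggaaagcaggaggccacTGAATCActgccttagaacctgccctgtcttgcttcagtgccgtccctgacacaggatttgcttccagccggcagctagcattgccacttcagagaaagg

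One microRNA hairpin of known function lay under a wild-type-only region. Mir199b lies within chr2:32317204-32318590, a region with an authors' fold of 5.98. Its mature product from the 3′ arm (chr2:32318524-32318545, plus strand) is given with the seed, bases 2 to 8, in capitals. The miR-199 family is known from mesenchymal cells, and the same letters are made from the miR-199a genes.
mmu-miR-199b-3p: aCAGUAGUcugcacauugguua

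The hairpins of Mir23a, Mir27a, Mir24-2 and Mir3074-2 lay 749 to 1056 bp from a second wild-type-only region with a fold of 3.91. Gm23363 lay under the same region as Mir199b, Mir5710 lay 17 bp and Mir6380 904 bp from 2 further regions.

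The wild-type-only regions were narrow and had low folds within their own list. They were chosen by their width and by the absence of a knockout region, both measured in these libraries, so these values describe them and test nothing. Their width ranged from 1000 to 3486 bp with a median of 1204 bp, against medians of 1451 bp for knockout-only and 1953 bp for shared regions. Widths of at least 2000 bp occurred in 41 of them (3.09%), 22.6% of knockout-only and 48.3% of shared regions. The authors' fold of the summit over local background ranged from 2.21 to 14.0 with a median of 5.79, and the median fold of shared regions in the same list was 18.2. The median −log10 q was 11.3, with 537 regions (40.5%) under 10, against 4.34% of shared regions. Within the whole wild-type list their median rank by −log10 q was at percentile 37.2.

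The 1000 bp limit cut through a continuous range of widths. The first 10 bp above it held 41 wild-type-only regions, with a median fold of 5.46, and the last 10 bp under it held 45 that were left out, with a median fold of 5.20. In all, 12978 wild-type regions of any width overlapped no knockout region, and 10.2% of them reached 1000 bp. At the other limit, the wild-type-only region closest to a knockout region was 62 bp away, and the smallest overlap that made a region shared was 47 bp.

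**Figure D2:**
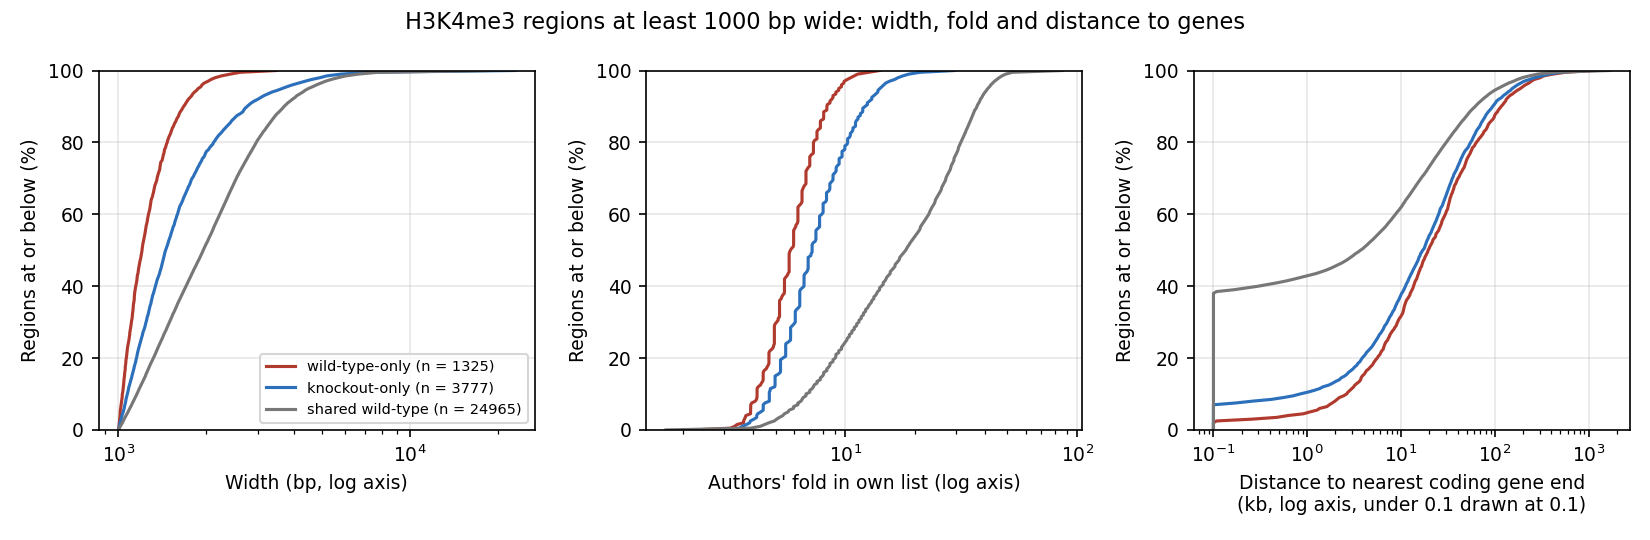
Cumulative distributions (y axes, percent of regions at least 1000 bp wide) of width in bp, of the authors' fold within each region's own list, and of the distance in kb to the nearest end of a protein-coding gene, all on log axes. Wild-type-only regions (median 1204 bp, fold 5.79) lie left of shared regions (1953 bp, 18.2) in width and fold, and right of them in distance to a gene end (19.4 kb against 3.70 kb). The fold of knockout-only regions comes from another library and is drawn for completeness.

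Wild-type-only regions lay among marked chromatin of both lists without touching that of the knockout. The nearest knockout region was a median of 7.60 kb away, with quartiles of 2.71 and 20.3 kb. It was within 1 kb for 111 regions (8.38%), within 5 kb for 509 (38.4%) and within 50 kb for 1186 (89.5%). A shared region of the wild-type list lay within 5 kb of 464 (35.0%).

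Wild-type-only regions lay inside or between genes far more often than at gene ends. RefSeq gene bodies were overlapped by 628 of 1325 (47.4%, exact 95% interval 44.7 to 50.1%), against 66.7% of knockout-only and 67.1% of shared regions. Only 63 (4.75%) lay within 1 kb of an end of a coding gene, against 10.5% of knockout-only and 42.9% of shared regions. As for starts, the contrast with shared regions describes classes that the rule itself split. Another 582 (43.9%) lay deeper inside a gene, against 57.5% and 25.6%. The remaining 680 (51.3%, 48.6 to 54.0%) lay outside genes and over 1 kb from any end, against 32.0% of knockout-only and 31.5% of shared regions. Over 10 kb from every coding gene lay 492 (37.1%), against 23.0% and 21.8%, and over 100 kb lay 106 (8%), against 6.01% and 3.58%. The median distance to the nearest gene end was 19.4 kb, 17.0 kb for knockout-only and 3.70 kb for shared regions. The gene table holds no exons, so exonic and intronic regions were not separated.

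The widest wild-type-only region lay 6.08 kb from Haus7, which encodes a subunit of the augmin complex of the spindle (chrX:73465113-73468598, 3486 bp, fold 7.28). A region of 2434 bp with a fold of 10.7 lay 7.99 kb from Itga3, the integrin alpha 3 chain, a laminin receptor of epithelial cells. A region of 2556 bp with a fold of 7.28 lay 55.6 kb from Cd44, the hyaluronan receptor, and 256 bp from a knockout region. Fhod3, a formin that assembles actin, held one of 2376 bp with a fold of 9.10.

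The highest fold, 14.0, belonged to a region of 1861 bp 7.63 kb from Rpl17, a ribosomal protein gene (chr18:74989490-74991350). A region of 1951 bp with a fold of 13.8 lay 2.25 kb from Dhrs9, which encodes a retinol dehydrogenase. Regions inside Dlc1, a tumour suppressor gene, and Ak5, an adenylate kinase, each had a fold of 13.0, and their widths were 1133 and 1261 bp. A region 47.5 kb from Cdc42ep3, an effector of the Cdc42 GTPase, had a fold of 12.7. Only 38 wild-type-only regions had a fold of at least 10 (2.87%).

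Clustering was limited. Another wild-type-only region lay within 50 kb of 253 of them (19.1%, exact 95% interval 17.0 to 21.3%), against 59.3% of knockout-only and 85.5% of shared regions, classes that hold more regions. They formed 118 runs of 2 or more at that spacing, 13 runs of 3 or more and none longer than 4. Knockout-only regions formed 344 runs of 3 or more, up to 16 regions long.

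The most compact run of 4 lay inside Cspg4, which encodes the NG2 proteoglycan of pericytes and of some tumour cells (chr9:56872702-56882913). Its regions were 1039 to 2077 bp wide with folds of 3.90 to 5.72. In this interval 0 bp were covered in knockout and 6134 bp in wild-type cells. Of the latter, 5841 bp lay in the wild-type-only regions, which no knockout region overlaps by rule. Over the whole gene 2828 bp were covered in knockout and 12679 bp in wild-type cells. Within 2.5 kb of the start, which no wild-type-only region reached, 1758 bp were covered in knockout and 3160 bp in wild-type cells.

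Fndc3b, a fibronectin type III domain protein, held 4 regions spread over 81089 bp (chr3:27625078-27706166), an interval with 3796 bp covered in knockout and 11498 bp in wild-type cells. Another run of 4 lay at least 401.7 kb from any coding gene, between Med13l and Tbx3 (chr5:119167100-119230413), with 0 bp covered in knockout and 5694 bp in wild-type cells. The wild-type-only regions themselves made up 5280 bp of this wild-type length. Tbx3 encodes a T-box factor of limb and mammary development. One more run of 4 lay between Jade2 and Cdkn2aipnl (chr11:51891938-51946333), with 6348 bp covered in knockout and 10993 bp in wild-type cells.

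Agap1, a GTPase-activating protein for Arf, held the run of 3 with the widest region, 2926 bp with a fold of 10.7 (chr1:89554361-89571522). There 0 bp were covered in knockout and 7078 bp in wild-type cells. The run inside Fmnl2, a formin, had 0 bp in knockout and 4458 bp in wild-type cells, with folds of 3.49 to 3.90. The run inside Enox1, a hydroquinone oxidase, had 0 bp in knockout and 4188 bp in wild-type cells. The wild-type-only regions themselves made up 6114 bp of the wild-type length in Agap1, 3892 bp in Fmnl2 and all 4188 bp in Enox1. Other runs of 3 lay over Banp, Dlc1 and Actn4 with Eif3k, and near Pik3cb with Cep70, Myom1 with Lpin2, and 1700056E22Rik. All of these but the last had knockout regions within the run.

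**Figure D3:**
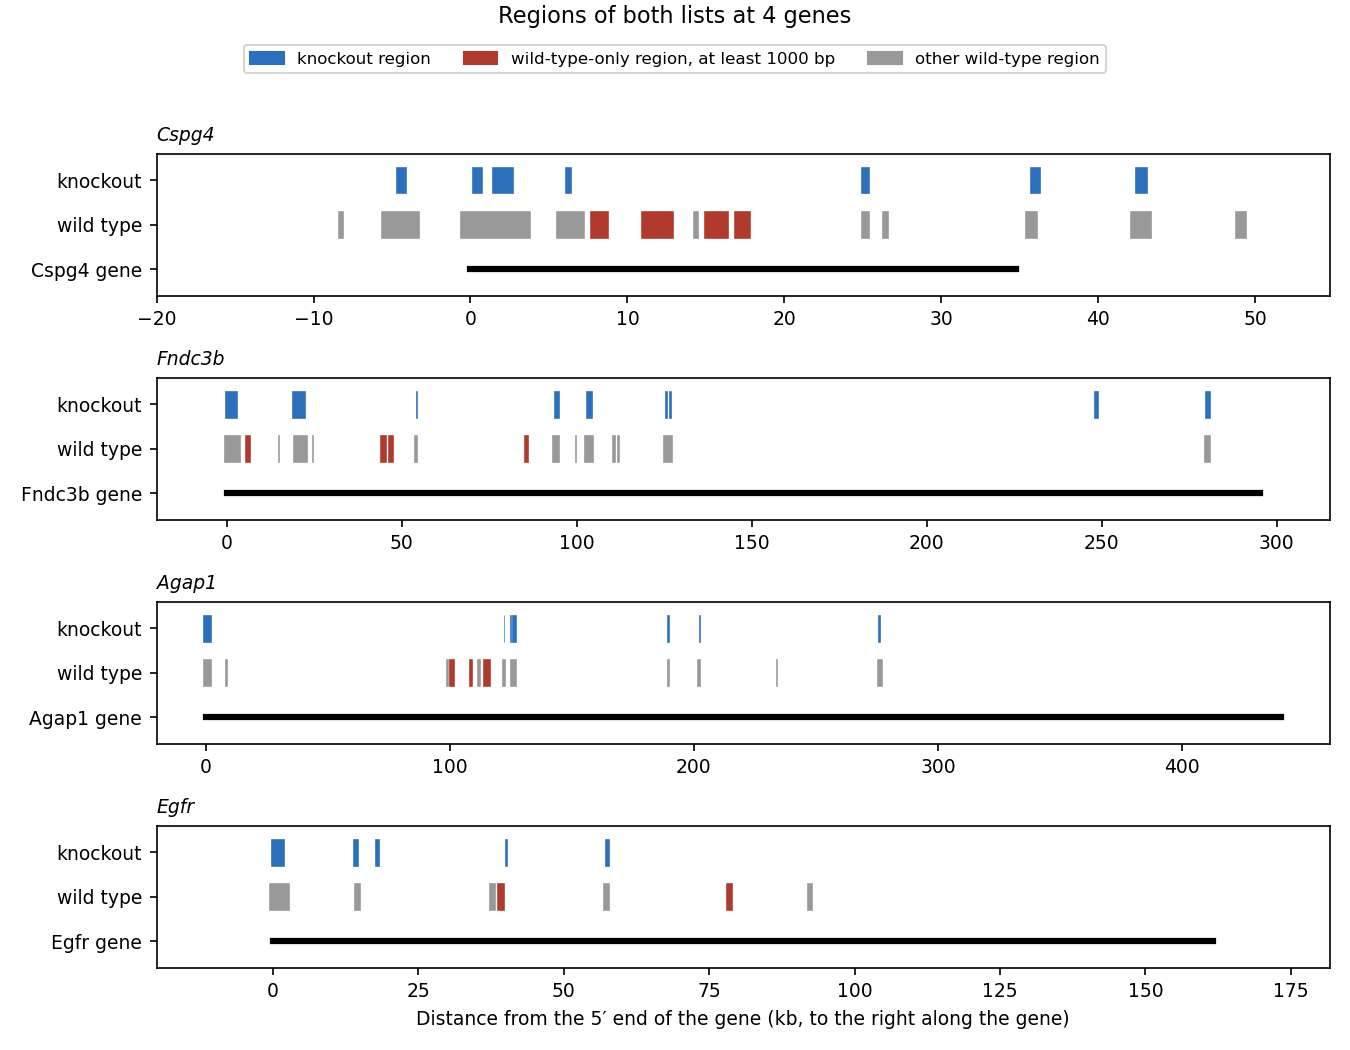
Regions of the knockout list (upper row) and the wild-type list (lower row) at Cspg4, Fndc3b, Agap1 and Egfr, by distance in kb from the 5′ end of each gene along the x axis. The wild-type-only regions of at least 1000 bp are in red, other wild-type regions in grey, knockout regions in blue and the gene body in black. In Cspg4 and Agap1 the red regions stand together over a stretch with no knockout region.

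By chromosome, wild-type-only regions made up between 3.38% of wild-type regions of at least 1000 bp on chromosome 10 (45 of 1331) and 8.03% on chromosome 14 (72 of 897), with 7.30% on chromosome 18. Knockout-only regions ranged from 9.96% of knockout regions on chromosome 8 to 18.4% on chromosome 9. In windows of 5 Mb the median number of wild-type-only regions was 2, and 130 of 531 windows held none. The most in a window was 15 of 99 wild-type regions, on chromosome 8 between 10000001 and 15000000. The basement membrane collagen genes Col4a1 and Col4a2 lie there and held only 1 of these 15 regions each.

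**Figure D4:**
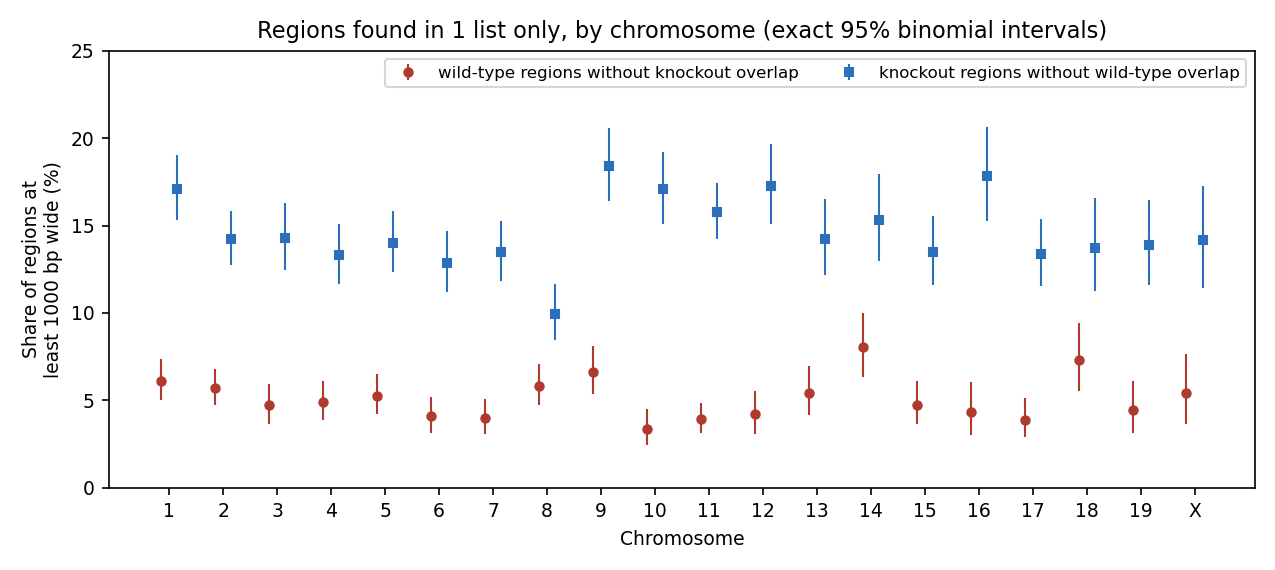
Share of regions of at least 1000 bp (y axis, percent) that overlap no region of the other list, by chromosome (x axis), with exact 95% binomial intervals as bars. Circles are wild-type-only regions, 3.38 to 8.03%, and squares knockout-only regions, 9.96 to 18.4%.

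Of 21627 coding genes, 884 had a wild-type-only region over the body or within 10 kb (4.09%) and 570 had one over the body (2.64%). Over the body, 513 of them had 1 region, 49 had 2, 6 had 3, and Cspg4 and Fndc3b had 4. A knockout-only region lay over or near 2297 genes (10.6%) and a shared region over or near 67.8%. Both kinds lay at 173 genes, which is 19.6% of the genes with a wild-type-only region and 7.53% of those with a knockout-only region. Long genes had one more often. The share was 1.41% for genes under 10 kb, 3.42% from 10 to 50 kb, 8.38% from 50 to 200 kb and 14% for genes of at least 200 kb. For knockout-only regions it was 4.79%, 9.94%, 20.5% and 22.9% in the same order. The median length of genes with a wild-type-only region was 55684.5 bp, against 17330 bp for all coding genes.

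The rest of these genes was examined without the wild-type-only regions of at least 1000 bp. At 535 genes with such a region over the body and other coverage there, the covered length outside it was shorter in the knockout for 362 (67.7%), with a median of 4130 bp in knockout and 4808 bp in wild-type cells. Among 15001 covered genes with none it was shorter for 48.1%. The genes with none had less coverage, with a median of 1746 bp in wild-type cells. Among genes of at least 50 kb the shares were 66.1% and 48.9%. Wild-type-only regions under 1000 bp stayed in the length outside, and the genes were chosen from these same lists. The shares here and at starts therefore describe the genes and are no independent support. Starts differed less. Of 327 genes with a wild-type-only region over the body, none near the start and a start covered in either list, 193 had less start coverage in the knockout (59.0%), with a median difference, knockout minus wild type, of −76 bp. For all coding genes with a covered start the share was 51.9% and the median difference −14 bp. The start was covered in both lists for 298 of the 327 genes, in the knockout alone for 18 and in the wild type alone for 11.

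Cell type was read from 16 gene lists holding 311 genes, which were tallied with a wild-type-only region over the gene body or within 10 kb, against 4.09% of all coding genes. The intervals of such short lists are wide, and lists of long genes offer more room for a region. The covered lengths given for genes and lists count every region, wild-type-only ones included. No knockout region overlaps those by rule, so where a gene holds one its lengths partly or wholly restate the choice of regions. Of all 311 genes 25 had such a region (8.04%, 5.27 to 11.6%). The 8 lists of cells other than T cells that populate a tumour held 18 of 156 (11.5%, 6.98 to 17.6%), and the 6 lists that name neither those cells nor T cells held 7 of 112 (6.25%, 2.55 to 12.5%). The 8 lists are those for macrophages, dendritic cells, granulocytes and mast cells, B cells, endothelium, fibroblasts and pericytes, epithelium, and mesenchymal tumour cells. Except for fibroblasts and pericytes, each had at least as many genes with a knockout-only region as with a wild-type-only one. Of all coding genes 10.6% had a knockout-only region.

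Neither T cell list had a hit. Of 20 T cell identity genes and 24 CD8 effector genes, 0 had a wild-type-only region, which allows shares of up to 16.8% and 14.2%, so at a background of 4.09% the absence is not a result. A knockout-only region lay at 15 of the 20 and 14 of the 24, against 10.6% of all coding genes. The wild-type-only regions whose nearest coding gene was a T cell gene lay 35.3 and 188 kb from Prdm1, 70.4 kb from Ifng, 154 kb from Bcl11b and 391.5 kb from Gata3. Prdm1 encodes the repressor Blimp-1 and Ifng interferon gamma.

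Among 20 fibroblast and pericyte genes, 4 had a wild-type-only region (20%, exact 95% interval 5.73 to 43.7%). The median gene length of the list was 35346.5 bp, against 17330 bp for all coding genes. The count was 2 of 20 with a −log10 q of at least 10 and 1 of 20 with a minimum width of 1500 bp, and the interval held the share of all coding genes under 4 of 10 alternative settings. Besides Cspg4, these were Fbn1, Sparc and Pdgfrb, and a knockout-only region lay at 3 of the 20. Fbn1, which encodes the microfibril protein fibrillin-1, held 2 regions of 1209 and 1029 bp, each with a fold of 4.68. Over its body 4039 bp were covered in knockout and 8044 bp in wild-type cells. Sparc, a matrix glycoprotein, had 3213 bp over its body in the knockout and 6450 bp in wild-type cells. A region with a fold of 9.62 lay 6.90 kb from Pdgfrb, the PDGF receptor of pericytes. Counting every region at the 20 genes of the list, 3 had a longer covered length in knockout cells and 15 a shorter one, against 35.3% and 37.3% of all coding genes. It summed to 53.7 kb in knockout and 83.9 kb in wild-type cells. Of the wild-type sum, 5841 bp came from the wild-type-only regions in Cspg4, 2238 bp from those in Fbn1 and 1011 bp from that in Sparc. The 3 genes longer in knockout cells were Thy1, Acta2 and Twist1. Thy1 had 4574 bp in knockout and 0 bp in wild-type cells. Lum and Tagln were at 0 bp in both lists.

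Endothelial genes had 3 of 20 (15%, 3.21 to 37.9%), namely Cdh5, Tie1 and Nos3, and a knockout-only region also lay at 3. Cdh5, the VE-cadherin of endothelial junctions, had a region of 1471 bp with a fold of 9.37. Over the Cdh5 body 2167 bp were covered in knockout and 6754 bp in wild-type cells. Over Tie1, an endothelial receptor kinase, 0 bp were covered in knockout and 1710 bp in wild-type cells. Other endothelial genes had longer coverage in knockout cells. Pecam1, an adhesion molecule of endothelium and leukocytes, had 16437 bp in knockout and 12003 bp in wild-type cells. The transcription factor gene Erg had 4364 bp in knockout and 678 bp in wild-type cells, and Sox17 had 1481 bp in knockout and 0 bp in wild-type cells. Tek, Emcn, Cldn5, Robo4 and Sox18 were at 0 bp in both lists. In the list as a whole 4 genes had a longer covered length in knockout cells and 11 a shorter one. This length summed to 45.4 kb in knockout and 51.5 kb in wild-type cells. Of the wild-type sum, 4438 bp came from the wild-type-only regions at Cdh5, Tie1 and Nos3.

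Macrophage and monocyte genes had 3 of 30 (10.0%, 2.11 to 26.5%), the same number as for knockout-only regions. They were Mrc1, Ctsb, which encodes the protease cathepsin B, and Apoe, an apolipoprotein of lipid-laden macrophages, with folds of 5.20 to 5.98. The Ctsb region lay 355 bp from a knockout region. The count was 2 of 30 where a knockout region within 1 kb also removed a region. Covered length over the list was longer in knockout cells for 8 genes and shorter for 17, and it summed to 71.1 kb in knockout and 84.6 kb in wild-type cells. C1qa, C1qb, C1qc and Ms4a7 were at 0 bp in both lists. Csf1r, the receptor for the macrophage growth factor, had 2160 bp in knockout and 3726 bp in wild-type cells. Ccr2, the chemokine receptor of monocytes, had 5537 bp in knockout and 958 bp in wild-type cells, and the Fc receptor gene Fcgr3 had 6101 bp in knockout and 5044 bp in wild-type cells. Apoe itself, with the flanking 1 kb, had 1167 bp in knockout and 824 bp in wild-type cells, since its wild-type-only region lay 3.51 kb outside the gene.

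Genes of mesenchymal tumour cells had 4 of 20 (20%, 5.73 to 43.7%), as for knockout-only regions, with a median gene length of 33056.5 bp. The count was 2 of 20 with a −log10 q of at least 10 or within 2 kb of the gene and 1 of 20 with a minimum width of 1500 bp, and the interval held the share of all coding genes under 5 of 10 alternative settings. Met held 2 regions of 2220 and 1054 bp, with folds of 5.10 and 3.91. Over the Met body 8597 bp were covered in knockout and 14973 bp in wild-type cells. Egfr, the receptor of epidermal growth factor, held regions of 1201 and 1007 bp with folds of 4.10 and 6.60. The first lay 148 bp from a knockout region, and the second lay over the Egfros start shown above. Over the Egfr body 4464 bp were covered in knockout and 8795 bp in wild-type cells. Single regions lay 8.33 kb from Zeb2, a repressor of epithelial genes, and 5.03 kb from the signalling gene Wnt5a. In knockout cells 6 genes had a longer and 13 a shorter covered length, yet the sum was 140 kb in knockout and 134 kb in wild-type cells, with Tgfbr2 at 24286 bp in knockout and 4164 bp in wild-type cells.

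Other lists had at most 1 hit each, with the exception of autophagy. The hits were Tcf4 among 18 dendritic genes, Kit among 16 of granulocytes and mast cells, Pax5 among 12 of B cells, Ehf among 20 epithelial genes, Syt1 among 16 neuronal genes, Lipe among 12 adipocyte genes and Pax2 among 20 developmental regulators. None of 16 muscle and 18 housekeeping genes had one. All 18 housekeeping genes were covered in both lists. The part that other cell types in the libraries play in the wild-type-only regions was not tested.

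The autophagy genes, to which the deleted gene belongs, had 4 of 30 with a wild-type-only region (13.3%, 3.76 to 30.7%) and 4 with a knockout-only region. Atg7, the activating enzyme of the conjugation step that Atg5 takes part in, held a region of 1107 bp with a fold of 8.76. With the flanking 1 kb, Atg7 had 4658 bp in knockout and 7723 bp in wild-type cells. Regions lay 7.59 kb from Atg14 and 5.36 kb from Pik3c3, which encode subunits of the class III PI3-kinase complex. These genes had more coverage in the knockout, with 2847 bp in knockout and 1991 bp in wild-type cells for Atg14, and 4522 bp in knockout and 2315 bp in wild-type cells for Pik3c3. A region lay 4.73 kb from Wipi1, which binds the lipid that this kinase makes, and 405 bp from a knockout region. The count was 3 of 30 where a knockout region within 1 kb also removed a region. All 30 genes were covered in both lists, 16 longer and 13 shorter in the knockout.

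**Figure D5:**
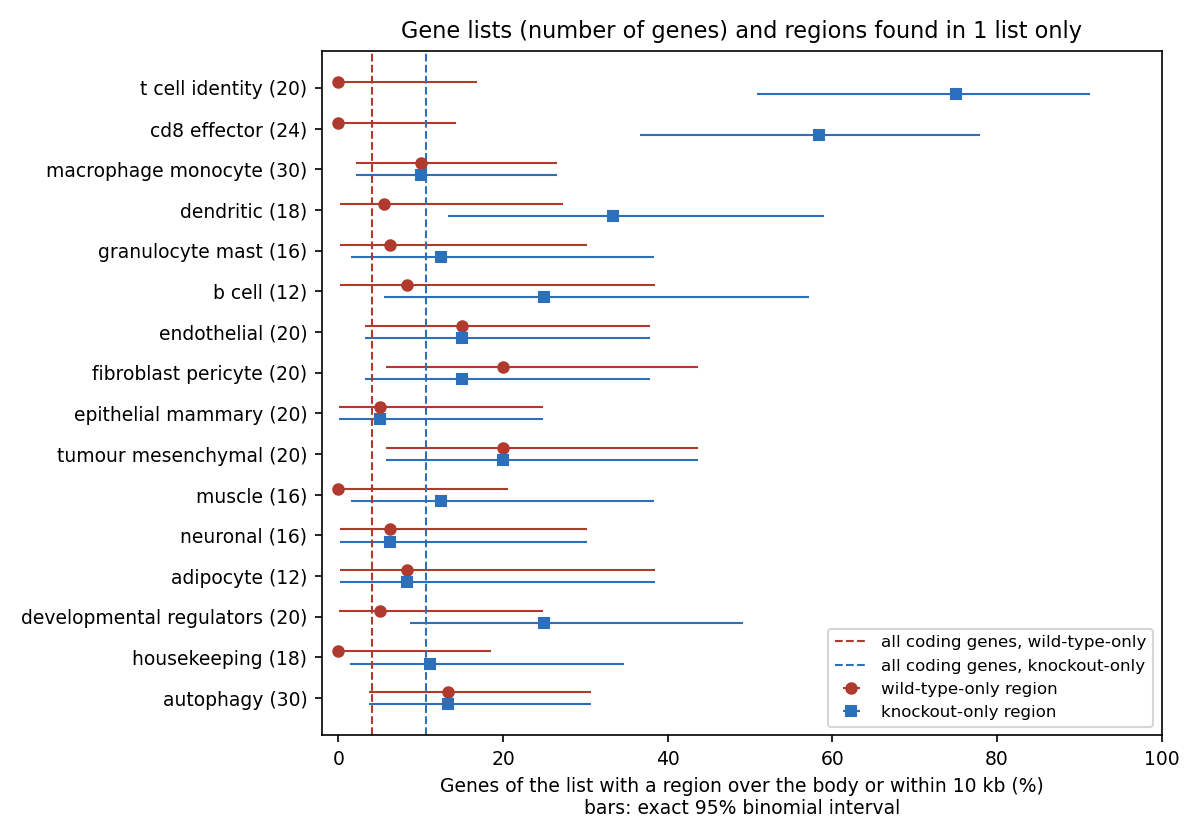
Share of the genes of each list (x axis, percent) with a wild-type-only region (circles) or a knockout-only region (squares) over the body or within 10 kb, with exact 95% binomial intervals as bars and the number of genes in parentheses. Dashed lines mark all coding genes at 4.09% for wild-type-only and 10.6% for knockout-only regions. The T cell lists stand at 0% for wild-type-only regions and at 75% and 58.3% for knockout-only regions. For wild-type-only regions the intervals of the fibroblast and pericyte list and of the mesenchymal tumour list lie above the dashed line of that class at these settings, and all others include it.

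Some gene families, formed by symbol after the values were seen, held several of the genes hit. Formins, which assemble actin filaments, had 3 of 13 (23.1%, 5.04 to 53.8%), and the same number with a knockout-only region. Laminins, of basement membranes, had 2 of 11 (18.2%, 2.28 to 51.8%), and 3 of 11 with a knockout-only region (27.3%). The median gene length was 161427 bp for formins and 64499 bp for laminins. All coding genes of 50 to 200 kb had a share of 8.38%, which lies within both intervals.

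Col4a1, Col4a2, Col12a1 and Col18a1 made 4 of 44 collagen genes (9.09%, 2.53 to 21.7%), against 4.55% with a knockout-only region. Their median gene length was 114410 bp, and 9.09% is near the 8.38% of all coding genes of 50 to 200 kb. Over Col12a1, a collagen that associates with fibrils, 503 bp were covered in knockout and 5095 bp in wild-type cells. Over Col4a1 6309 bp were covered in knockout and 14604 bp in wild-type cells. Integrins had 4 of 31, Itgb6, Itgav, Itga3 and Itgb5 (12.9%, 3.63 to 29.8%), against 35.5% with a knockout-only region. The median integrin gene length was 55852 bp. The interval holds both the 4.09% of all coding genes and the 8.38% of those of 50 to 200 kb. Around the Itgb6 start 0 bp were covered in knockout and 1014 bp in wild-type cells, all of the latter in its wild-type-only region. Only Ccl8 among 39 chemokine ligand genes had a wild-type-only region, as had 1 of 1107 olfactory receptor genes and 8 of 397 Zfp genes (2.02%). None of 49 keratin genes had one.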

How the data were processed

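Of 6 samples, the 2 H3K4me3 lists entered this work, and the 4 H3K27me3 and input samples are not analysed here. Regions were called with MACS2 on GRCm38 (mm10), per the submitters' processing notes. The sources used here do not give version, settings, aligner, filters or any use of input, and the deposited lists do not state depth. The deposited fold is a ratio of summit signal to local background, and the deposited −log10 p and −log10 q refer to the same summit. They are the authors' values, were not scaled between libraries and were used within a list only. The deposited score was not used. Positions were used as the authors deposited them. The lowest −log10 q was 2.02 for knockout and 2.00 for wild-type regions.

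Overlaps, distances and covered lengths were computed with Python 3.11.15, NumPy 2.4.6 and pandas 2.3.3, and tested on simulated data and against bedtools 2.31.1, which found the same 1325 regions. Genes and starts came from RefSeq (GRCm38.p6); starts were listed for 81.8% of coding genes, with none on chromosome 18. All regions, lists and rules were chosen with earlier results of these data known. Named genes were drawn from those nearest the 15 widest and the 15 highest-fold regions and from the 10 runs with most regions. They were also drawn from the 15 genes with most regions over the body and from up to 4 per list. Not every gene under these rules is named. Genes at starts, in families, in marker checks or at the 3 further runs were named after their values were seen. Exact (Clopper-Pearson) intervals were computed with SciPy 1.17.1. Alternatives changed the width, the knockout gap, the −log10 q, the list length, the run gap and the gene window. A few results are not reported here.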

Additional observations from a re-analysis of the deposited data

How the results depend on the processing

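The number of wild-type-only regions depended on the width and strength asked for. It was 239 with a minimum width of 1500 bp, 6702 with 500 bp, 788 with a −log10 q of at least 10 and 3216 with the top 20000 regions of each list, and within 1.5 times of 1325 under the other settings. The share of wild-type regions was 1.35%, 17.0%, 3.19% and 17.2% in the same order, and 4.62% where a knockout region within 1 kb also removed a region. The share over a coding gene body was 42.8% with 20000 regions per list and between 44.7 and 48.1% under the other settings. The share with another within 50 kb was 7.53%, 47.4%, 9.26% and 33.0% in the order above, and 16.6% with the 1 kb rule. It was 5.96% and 29.7% with gaps of 10 and 100 kb. T cell genes with a wild-type-only region numbered 2 with a minimum width of 500 bp (Cd6 and Gata3), 4 with 20000 regions per list, 2 within 50 kb (Ubash3a and Prdm1) and 4 by nearest gene. Genes of other cells of a tumour numbered 3 at 1500 bp, 54 at 500 bp, 9 at −log10 q 10, 32 with 20000 regions and 31 within 50 kb, while the share of all coding genes was 0.763%, 16.7%, 2.5%, 9.36% and 9.47%. With 50 kb on either side of the gene middle, an alternative chosen after seeing the data, the counts were 0 and 22. Single lists changed in 87 of 160 recomputed counts. No paired analysis was possible because each genotype has 1 library and the labels carry no replicate numbers; for the same reason no replicate could be left out. The lists do not state depth, and its part in which weak regions were called was not tested.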
